A study of Mus musculus with 14 samples.

Results

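Synj1, Itsn1, Vps26c, Dop1b and Tmem50b are 5 membrane traffic genes of the chromosome 16 segment that Ts1Cje mice carry in an extra copy. They were taken by gene symbol, Vps26c and Dop1b under the older names Dscr3 and Dopey2, and are 5 of the 24553 gene names on the array. Every probe of each gene was followed apart, 13 of 55681 probes in all. A probe was kept for testing where at least 1 of the 4 groups had it well above background on all its arrays, which held for 10 of the 13 and for 25190 probes in all. Ts1Cje mice model Down syndrome through a partial trisomy of distal chromosome 16, so that the 5 genes are present in 3 copies, against 2 in the disomic C57BL/6 littermates (WT). RNA of whole extensor digitorum longus (EDL), a fast-twitch hind limb muscle, was hybridised from 3 Ts1Cje and 3 WT samples, and RNA of whole soleus, a slow-twitch muscle, from 4 Ts1Cje and 4 WT samples, each to its own 1-colour Agilent array. The submitters describe the samples of each muscle as littermate pairs, and no label says which samples form a pair. Age, sex and whether both muscles came from the same animals are not given in the sources used here, so the p-values measure the spread between these samples.

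Endocytosis takes pieces of the cell surface into vesicles, and endosomes then sort their cargo to lysosomes, to the Golgi or back to the surface. Synj1 encodes synaptojanin 1, a phosphoinositide phosphatase that helps clathrin-coated vesicles shed their coat. Itsn1 encodes intersectin 1, a scaffold that gathers dynamin, Eps15 and synaptojanin at clathrin-coated pits. Vps26c is a subunit of retriever, a retromer-like complex that returns cargo such as integrins from endosomes to the surface. Dop1b encodes a large protein whose relatives in yeast and worm work with Mon2 in traffic between endosomes and the Golgi. Tmem50b encodes a small multi-pass membrane protein of the endoplasmic reticulum and Golgi.

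The signal of each gene comes from 60-base probes. Of the 13, 7 are shown 5′ to 3′ with their mm9 positions and strand as the deposited table gives them. Capitals mark an unbroken run of at least 20 bases of alternating G and T, which only 1 of the 13 probes holds.
Synj1 A_55_P1955517, chr16:90936338-90936397 (-): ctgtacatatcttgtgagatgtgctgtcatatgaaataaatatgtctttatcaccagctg
Itsn1 A_55_P1994608, chr16:91869994-91870053 (+): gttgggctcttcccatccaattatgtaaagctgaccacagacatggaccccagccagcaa
Itsn1 A_55_P2431118, chr16:91871472-91871531 (+): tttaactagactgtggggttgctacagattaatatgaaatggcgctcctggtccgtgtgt
Itsn1 A_55_P1994603, chr16:91913786-91913845 (+): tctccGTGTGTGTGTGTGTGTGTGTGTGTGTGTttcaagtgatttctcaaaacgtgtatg
Vps26c A_51_P508191, chr16:94719534-94719593 (-): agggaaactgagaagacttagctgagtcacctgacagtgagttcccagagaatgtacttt
Dop1b A_51_P481238, chr16:93810690-93810749 (+): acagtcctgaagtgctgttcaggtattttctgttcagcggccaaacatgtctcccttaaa
Tmem50b A_51_P510849, chr16:91574765-91574824 (-): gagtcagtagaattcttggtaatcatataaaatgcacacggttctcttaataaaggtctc
That probe of Itsn1, A_55_P1994603, carries a run of 28 bases, and the longest GT or CA run in the other 12 probes is 6 bases. Of the kept probes, 76 (0.302%) hold a GT or CA run of at least 20 bases.

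Levels are given as the processed signal divided by the 75th percentile of the same array, a scale without unit on which values of 1 probe can be compared between arrays but not values of different probes. All changes and differences are on the log2 scale, as Ts1Cje minus WT or EDL minus soleus, with the standard error (SE) of the fit, and only a probe with a limma adjusted p under 0.05 over the 25190 kept probes counts as called, or is said to have risen or fallen. In bulk muscle, more cells of a type and more RNA per cell cannot be told apart. Each array had 41.3% to 52.9% of its probes well above background, and 0 were saturated. The defining markers fitted the muscle labels, as 6 fast fibre genes summed to levels of 9028 to 13169 in the EDL against 1733 to 3391 in the soleus, and 6 slow fibre genes to 35.4 to 438 against 5881 to 9100. The arrays came on 2 slides, one with all 6 of the EDL and replicate 1 of the Ts1Cje soleus, the other with the remaining 7 of the soleus.

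Tmem50b had the largest change of the called members. In the EDL its level was 11.7, 12.1 and 12.1 on the Ts1Cje arrays, against 6.35, 7.76 and 6.89 on the WT arrays. In the soleus it was 9.62, 12.04, 11.3 and 10.5 on the Ts1Cje arrays, against 5.47, 6.43, 5.83 and 6.29 on the WT arrays. Every Ts1Cje array of either muscle lay above every WT array of either muscle. The change was 0.78 ± 0.12 (SE) in the EDL, short of the threshold (limma adjusted p = 0.0948, n = 3 and 3), and 0.85 ± 0.10 in the soleus, where Tmem50b rose (limma adjusted p = 0.00639, n = 4 and 4). The soleus change is 1.80-fold, with a 95% interval of 1.55 to 2.103 that lies above the ratio of 3 to 2 copies (1.5-fold). The EDL interval of 1.43 to 2.04 holds that ratio. Among the kept member probes in either muscle no other interval lies above the ratio, and the intervals are not adjusted for their number. Under 14 other ways of processing or fitting, the soleus change ranged from 0.79 to 0.91. The intervals of those fits were not set against the ratio. In order of mean level, EDL Ts1Cje (11.9 ± 0.220, SD) and soleus Ts1Cje (10.9 ± 1.04) overlapped, as did EDL WT (6.998 ± 0.715) and soleus WT (6.01 ± 0.440), and the gap lay between the genotypes.

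Synj1 rose in the Ts1Cje soleus. Its level there was 3.65, 4.22, 4.43 and 4.14, against 2.30, 2.56, 2.23 and 2.48 in the WT soleus, so the groups did not overlap. The change was 0.78 ± 0.10 (limma adjusted p = 0.0100, n = 4 and 4), or 1.72-fold. In the EDL the level was 2.20, 2.02 and 2.45 in Ts1Cje and 1.73, 1.44 and 1.49 in WT, again without overlap, at a change of 0.52 ± 0.12 that did not pass (limma adjusted p = 0.649, n = 3 and 3). Soleus WT (2.39 ± 0.152) and EDL Ts1Cje (2.22 ± 0.215) were the neighbours in order that overlapped, with soleus Ts1Cje (4.11 ± 0.329) above them and EDL WT (1.55 ± 0.156) below. The other Synj1 probe, A_55_P1955511, was well above background on 2 of 14 arrays and was not tested.

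Vps26c, with 1 probe, also rose in the Ts1Cje soleus. The soleus levels were 5.39, 5.08, 5.22 and 4.51 in Ts1Cje, against 3.15, 3.02, 2.72 and 3.10 in WT. The EDL levels were 3.62, 3.63 and 4.37 in Ts1Cje, against 2.33, 2.85 and 2.69 in WT. Ts1Cje arrays lay above WT arrays in both muscles, and each Ts1Cje group also lay above the WT group of the other muscle. The change was 0.75 ± 0.11 in the soleus (limma adjusted p = 0.0153, n = 4 and 4) and 0.56 ± 0.12 in the EDL (limma adjusted p = 0.649, n = 3 and 3).

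Dop1b separated by muscle and by genotype at probe A_51_P481238. The level was 9.40, 11.2 and 9.89 in Ts1Cje EDL and 8.09, 7.77 and 6.92 in WT EDL. In the soleus it was 4.47, 4.51, 5.17 and 5.61 in Ts1Cje and 2.96, 2.79, 3.18 and 2.73 in WT. None of the 4 groups overlapped another, in the order EDL Ts1Cje, EDL WT, soleus Ts1Cje, soleus WT. Dop1b rose in the Ts1Cje soleus by 0.76 ± 0.11 (limma adjusted p = 0.0153, n = 4 and 4), beside 0.42 ± 0.12 in the EDL (limma adjusted p = 0.99997, n = 3 and 3). The second probe, A_55_P2029203, which lies 70.2 kb before it along the plus strand, was dim: 0.306 to 0.557 in Ts1Cje EDL, 0.113 to 0.408 in WT EDL, 0.193 to 0.309 in Ts1Cje soleus and 0.113 to 0.400 in WT soleus. It passed the background filter only through the Ts1Cje groups, its groups overlapped, and it was not called in either muscle (0.74 ± 0.49 in the EDL and 0.17 ± 0.42 in the soleus).

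Itsn1 was covered by 7 probes, and its 5 kept probes did not give 1 answer. At A_55_P1994608 the EDL level was 5.40, 5.71 and 5.38 in Ts1Cje, against 4.25, 4.70 and 3.39 in WT. The soleus level at the same probe was 4.50, 4.91, 4.599 and 4.89 in Ts1Cje, against 3.68, 3.55, 3.19 and 3.30 in WT. Neither muscle showed overlap between the genotypes, at changes of 0.43 ± 0.12 in the EDL and 0.46 ± 0.11 in the soleus. A_55_P2431118 read 22.3, 18.1 and 18.5 in Ts1Cje EDL, against 14.99, 17.5 and 10.4 in WT EDL. It read 13.5, 12.6, 13.0 and 13.4 in Ts1Cje soleus, against 9.43, 10.7, 7.96 and 8.26 in WT soleus. Ts1Cje again lay above WT in both muscles (0.49 ± 0.18 and 0.54 ± 0.15), and the same held for A_55_P1994586 (0.60 ± 0.14 in the EDL and 0.63 ± 0.12 in the soleus). A_52_P396498, a dim probe with levels between 0.241 and 0.740, stood at 0.70 ± 0.34 and 0.42 ± 0.30 with overlapping groups. None of these 4 probes was called in either muscle (limma adjusted p from 0.0728 to 0.99997).

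The fifth kept Itsn1 probe, A_55_P1994603 with the GT run, went another way. Its level was 187, 180 and 117 in Ts1Cje EDL and 156, 139 and 173 in WT EDL. In the soleus it was 132, 101, 66.0 and 109 in Ts1Cje and 120, 99.6, 149 and 131 in WT. The genotypes overlapped in both muscles, at 0.02 ± 0.25 in the EDL and -0.32 ± 0.21 in the soleus, and the 95% intervals, up to 0.55 and 0.14, lie below the log2 ratio of 3 to 2 copies (0.58). Over the 14 arrays its Pearson r with the 4 other kept Itsn1 probes was between -0.05 and 0.23. Its r with the 51 other kept probes that hold a GT run had a median of 0.988 (lowest 0.737), and those probes are named for 48 different genes, with 2 of the 51 on chromosome 16. With the 24 kept probes that hold a CA run the median was -0.63, and over all other kept probes it was 0.03, of which 139 exceeded 0.9. The 51 GT-run probes had a median soleus change of -0.33, with 50 of 51 lower in Ts1Cje and 0 called, and a median EDL change of 0.01. These correlations describe 14 shared arrays and carry no p, and the part of the run in the Itsn1 signal was not tested. A gene summary that takes the probe of highest mean gives Itsn1 the value of this probe, whereas the mean of its 5 kept probes gave a soleus change of 0.35 ± 0.12 (limma adjusted p = 0.317).

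**Figure D1:**
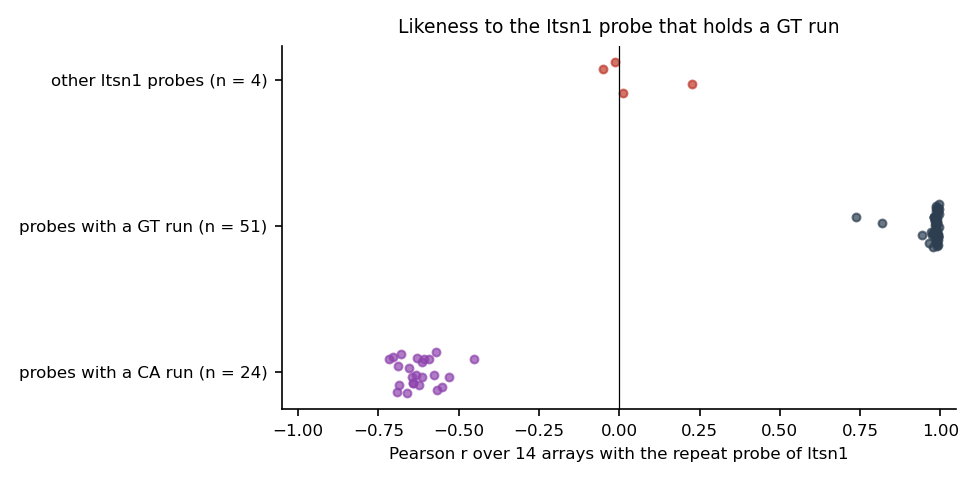
Pearson r over the 14 arrays between the Itsn1 probe with the GT run and the 4 other kept Itsn1 probes (top), the 51 other kept probes with a GT run (middle) and the 24 with a CA run (bottom); each point is 1 probe and the vertical jitter has no meaning. The GT-run probes lie between 0.737 and 0.996, the CA-run probes between -0.72 and -0.45, and the Itsn1 probes between -0.05 and 0.23.

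The members can be read against the rest of the array. In the soleus, 4 of the 10 kept member probes (Synj1, Vps26c, 1 of Dop1b and Tmem50b) rose and 0 fell, beside 0.115% of all 25190 probes called higher. In the EDL 0 of 10 were called, beside 0.00794% called higher, and with an unadjusted p under 0.05 limma gave 739 probes in all. Every Ts1Cje array exceeded every WT array for 7 of the 10 probes in the EDL, beside 2.76% of all kept probes, and for 7 of 10 in the soleus, beside 4.54%. Of the 59 other named genes of the segment, at 1 kept probe each, 31 in the EDL and 35 in the soleus did so too. The separation is thus shared with the segment and not particular to the 5 genes. For such a probe the exact two-sided permutation test gives p = 0.1 with 3 against 3 arrays and p = 0.0286 with 4 against 4, the smallest either design allows. Dop1b A_55_P2029203 was kept only through the Ts1Cje groups. Over the 9 other probes, each well above background on all arrays of all 4 groups, the median change was 0.52 in the EDL and 0.63 in the soleus, beside medians of -0.00 and 0.03 over all kept probes. Most of these 9 probes are of Itsn1, the GT-run probe among them. Probes of 1 gene share the same RNA and arrays, so these counts and medians are not of separate genes.

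**Figure D2:**
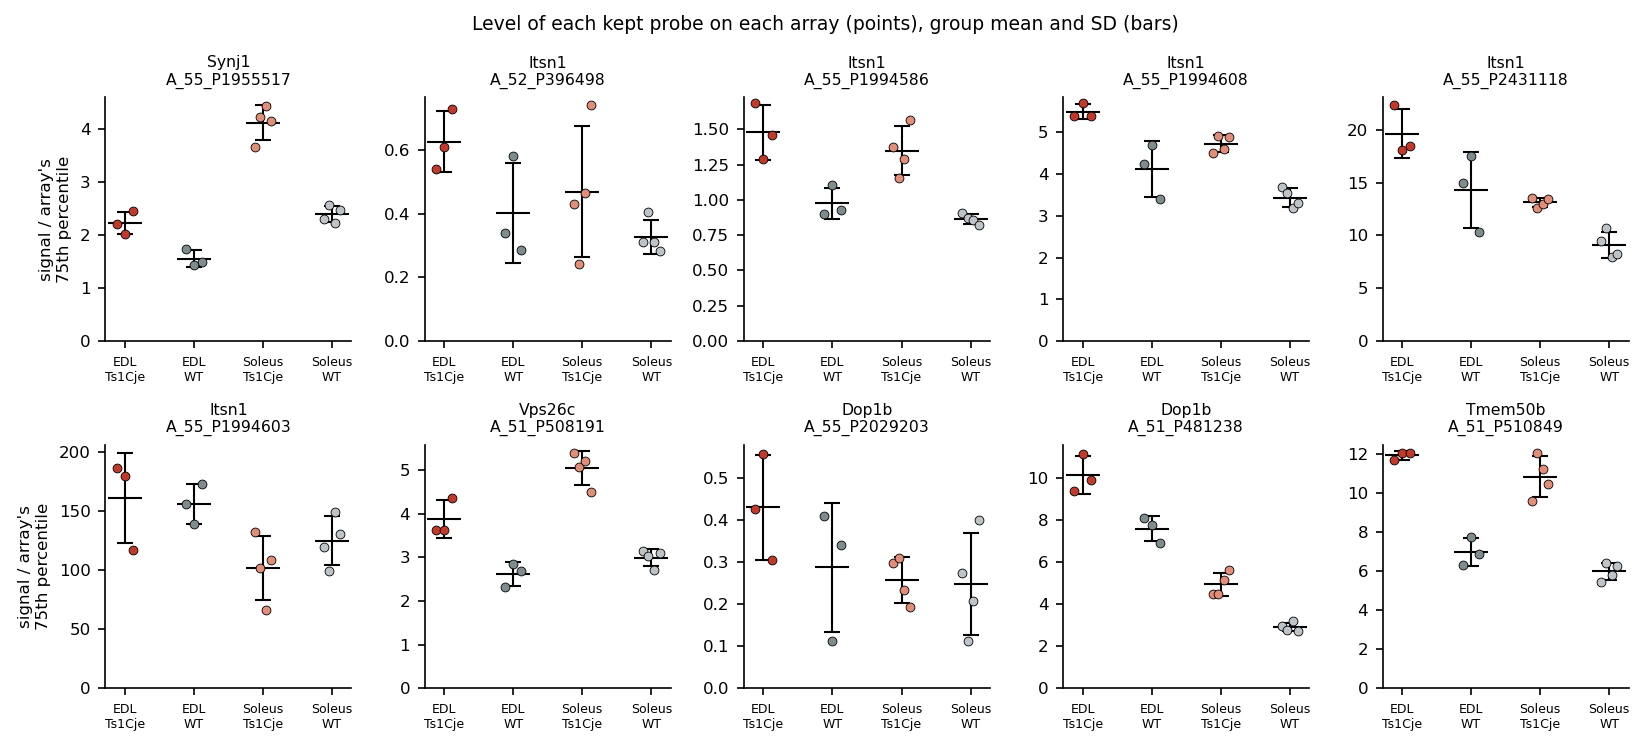
Level of each of the 10 kept probes (processed signal divided by the array's 75th percentile, linear axis from 0) on every array of EDL Ts1Cje, EDL WT, soleus Ts1Cje and soleus WT. Points are arrays, the long bar is the group mean and the whiskers are 1 SD. Tmem50b, Vps26c and Synj1 show all Ts1Cje arrays above the WT arrays of the same muscle, and the GT-run probe of Itsn1 (A_55_P1994603) shows overlap in both muscles.

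Whether the extra copy weighed differently in the 2 muscles was tested as the EDL effect minus the soleus effect. None of the 10 member probes was called, nor any of the 25190 (0% called), and 882 probes had an unadjusted p under 0.05. For Dop1b (A_51_P481238) the difference was -0.34 ± 0.16 (limma adjusted p = 0.977), with a 95% interval of -0.69 to 0.02. For Synj1 it was -0.26 ± 0.16, for Vps26c -0.19 ± 0.16 and for Tmem50b -0.08 ± 0.16, each with an interval that holds 0. These intervals leave room for a difference between the muscles, down to -0.69 for Dop1b.

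**Figure D3:**
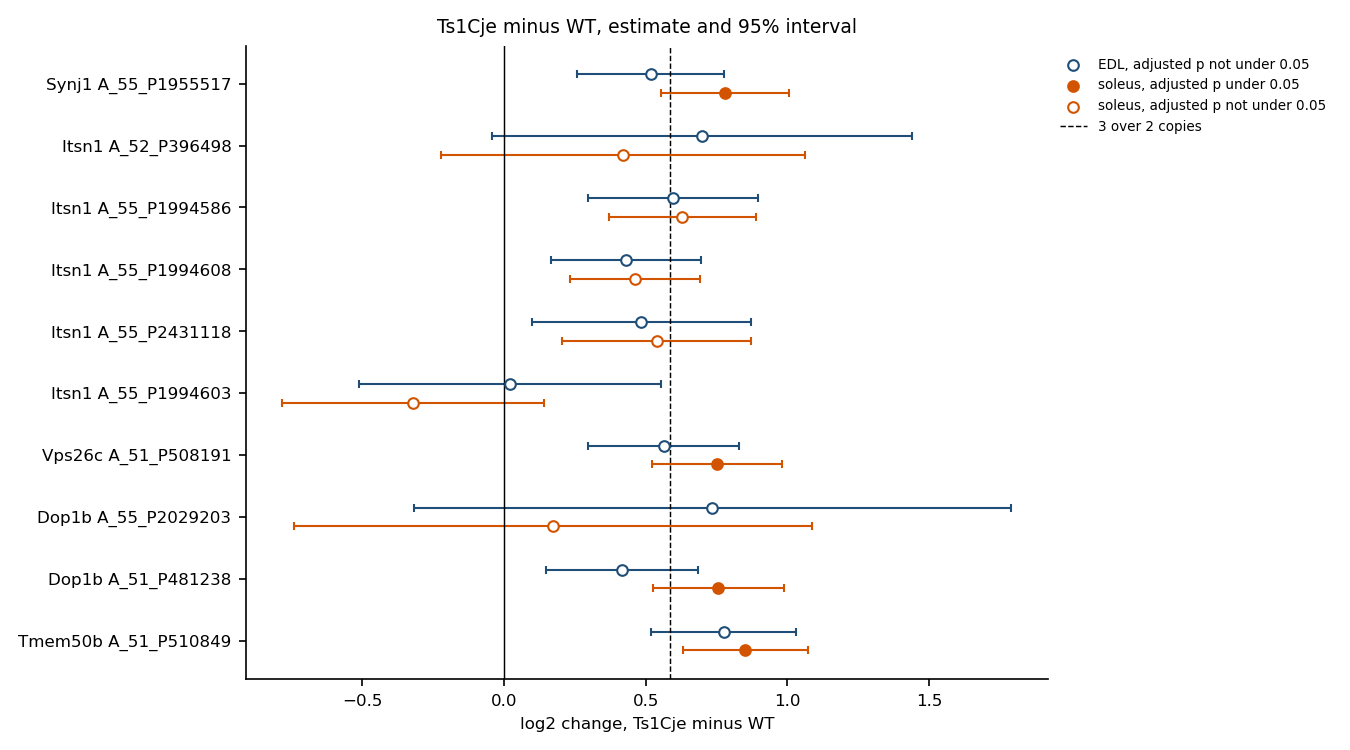
Estimated log2 change, Ts1Cje minus WT, with its 95% interval for each kept probe, in the EDL (blue) and soleus (orange); filled points have an adjusted p under 0.05 and the dashed line marks the log2 ratio of 3 to 2 copies (0.58). The 4 filled points are Synj1, Vps26c, Dop1b A_51_P481238 and Tmem50b in the soleus.

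The soleus calls rest on the spread shared by all 14 arrays. With the soleus arrays fitted alone the changes were the same and the limma adjusted p was 0.0712 for Synj1 and Tmem50b, 0.0754 for Vps26c and 0.0932 for Dop1b. None of the 4 was called without the filter on dim probes or with the replicate number as a block. The EDL arrays all share a slide. Among the 7 soleus arrays that share the other, 3 Ts1Cje and 4 WT, the changes were 0.91 for Tmem50b, 0.84 for Synj1, 0.80 for Dop1b and 0.72 for Vps26c, with adjusted p between 0.112 and 0.155. Tmem50b stayed called when any 1 of the 14 arrays was left out (adjusted p at most 0.0385), Synj1 in 13 of 14 cases, Dop1b in 10 and Vps26c in 8. Synj1 lost its call without soleus WT replicate 1 (0.0507), Dop1b without Ts1Cje replicate 3 (0.0625) or WT replicates 1, 2 or 4 (0.0567, 0.0502 and 0.0583), and Vps26c without Ts1Cje replicates 1, 2 or 3 (0.0541, 0.0650 and 0.0625) or WT replicates 1, 3 or 4 (0.0507, 0.0629 and 0.0524).

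Of 6 fast fibre markers, 3 fell in the Ts1Cje soleus. The 6 fast fibre genes summed to 1733 to 2043 in Ts1Cje soleus and 2296 to 3391 in WT soleus, and Myh4, Pvalb and Actn3 of the 6 fell (-4.12 ± 0.53, -1.86 ± 0.21 and -1.95 ± 0.28). Atp2a1, Myh1 and Tnnt3 stood at -0.57 ± 0.22, -0.10 ± 0.19 and 0.03 ± 0.11 and were not called (limma adjusted p = 0.330, 0.820 and 0.930). The 6 slow fibre genes had 0 calls, with sums of 6357 to 9100 in Ts1Cje and 5881 to 7292 in WT. Red blood cell genes summed to 112 to 138 in Ts1Cje soleus and 77.5 to 90.6 in WT soleus, with 3 of 3 higher and 0 called, and 6 macrophage genes to 19.7 to 27.1 and 17.8 to 20.9, with 6 of 6 higher and 0 called. Adipocyte genes summed to 3.48 to 10.5 and 1.81 to 7.90, also with 3 of 3 higher and 0 called. In the EDL, macrophage genes summed to 16.6 to 19.3 in Ts1Cje and 13.2 to 15.7 in WT, with 5 of 6 higher and 0 called. Slow fibre genes in the EDL had 0 of 6 higher and 0 called. None of the measured genes for Schwann cells and axons, endothelium, fibroblasts, adipocytes, satellite cells or neurons was called for genotype in either muscle. Satellite cells were read by Pax7 alone. Neurons were read by Syp and by Snap25, whose probe holds a CA run of 20 bases. The part of these shifts in the members' changes was not tested.

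Between the muscles, Dop1b and Synj1 differed in opposite directions. In Ts1Cje mice Dop1b (A_51_P481238) was higher in the EDL than in the soleus by 1.04 ± 0.12 (2.06-fold, limma adjusted p = 3.23e-05, n = 3 and 4), and in WT mice by 1.38 ± 0.12 (2.60-fold, limma adjusted p = 6.25e-06). Synj1 was lower in the EDL than in the soleus, with differences of -0.89 ± 0.11 in Ts1Cje (limma adjusted p = 8.95e-05) and -0.63 ± 0.11 in WT (limma adjusted p = 0.00137). Vps26c was lower in the EDL in Ts1Cje (-0.38 ± 0.12, limma adjusted p = 0.0262) and stood at -0.20 ± 0.12 in WT (limma adjusted p = 0.235). Tmem50b differed between the muscles by 0.14 ± 0.11 in Ts1Cje and 0.22 ± 0.11 in WT, neither called, with 95% intervals of -0.10 to 0.38 and -0.02 to 0.46. Of the Itsn1 probes, A_55_P2431118 was higher in the EDL in both genotypes (0.58 ± 0.17 and 0.63 ± 0.17, limma adjusted p = 0.0219 and 0.0139), and the GT-run probe was called in Ts1Cje (0.67 ± 0.23, limma adjusted p = 0.0465) and stood at 0.33 ± 0.23 in WT, with no call for the difference between genotypes.

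In Ts1Cje, 3 of 10 member probes were called higher in the EDL, beside 16.2% of all kept probes, and 2 of 10 lower, beside 10.8%. In WT, 2 of 10 were called higher, beside 16.5%, and 1 of 10 lower, beside 9.6%. Muscle and slide nearly coincide, and soleus Ts1Cje replicate 1 is the sole array that links the slides within a muscle. With slide as a fixed block, the slide effect therefore rests on that 1 array. The Ts1Cje differences of that fit set the EDL arrays against it alone, so calls kept there do not settle the part of the slide. With slide as a fixed block Dop1b kept its calls (1.18 in Ts1Cje, limma adjusted p = 0.00120, and 1.56 in WT, 0.00172) and Synj1 kept that in Ts1Cje (-0.72, 0.0132) but not that in WT (-0.40, 0.227). Vps26c in Ts1Cje (-0.48, 0.0972) and Itsn1 A_55_P2431118 (0.53 in Ts1Cje, 0.219, and 0.57 in WT, 0.288) lost theirs, as did the GT-run probe in Ts1Cje (0.26, 0.682). With any 1 of the 14 arrays left out, Dop1b (A_51_P481238) and Synj1 stayed called in both genotypes. Vps26c in Ts1Cje stayed called in 9 of 14 cases and lost its call without EDL Ts1Cje replicates 1 or 2 (0.102 and 0.0895) or soleus Ts1Cje replicates 1, 2 or 3 (0.0534, 0.0506 and 0.0605). Itsn1 A_55_P2431118 lost its call in Ts1Cje without EDL Ts1Cje replicate 1 (0.0985), and in WT without EDL WT replicates 1 or 2 (0.0529 and 0.0725). The GT-run probe in Ts1Cje stayed called in 3 of 14 cases, those without EDL Ts1Cje replicate 3, soleus Ts1Cje replicate 1 or soleus WT replicate 2, and its adjusted p otherwise reached 0.170. With the 75th percentile taken only over probes detected on all arrays, the median EDL minus soleus difference of all kept probes in WT was -0.13 in place of 0.04, and 37.4% in place of 63.2% of the calls were higher in the EDL. In Ts1Cje the share was 42.2% in place of 59.8%.

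**Figure D4:**
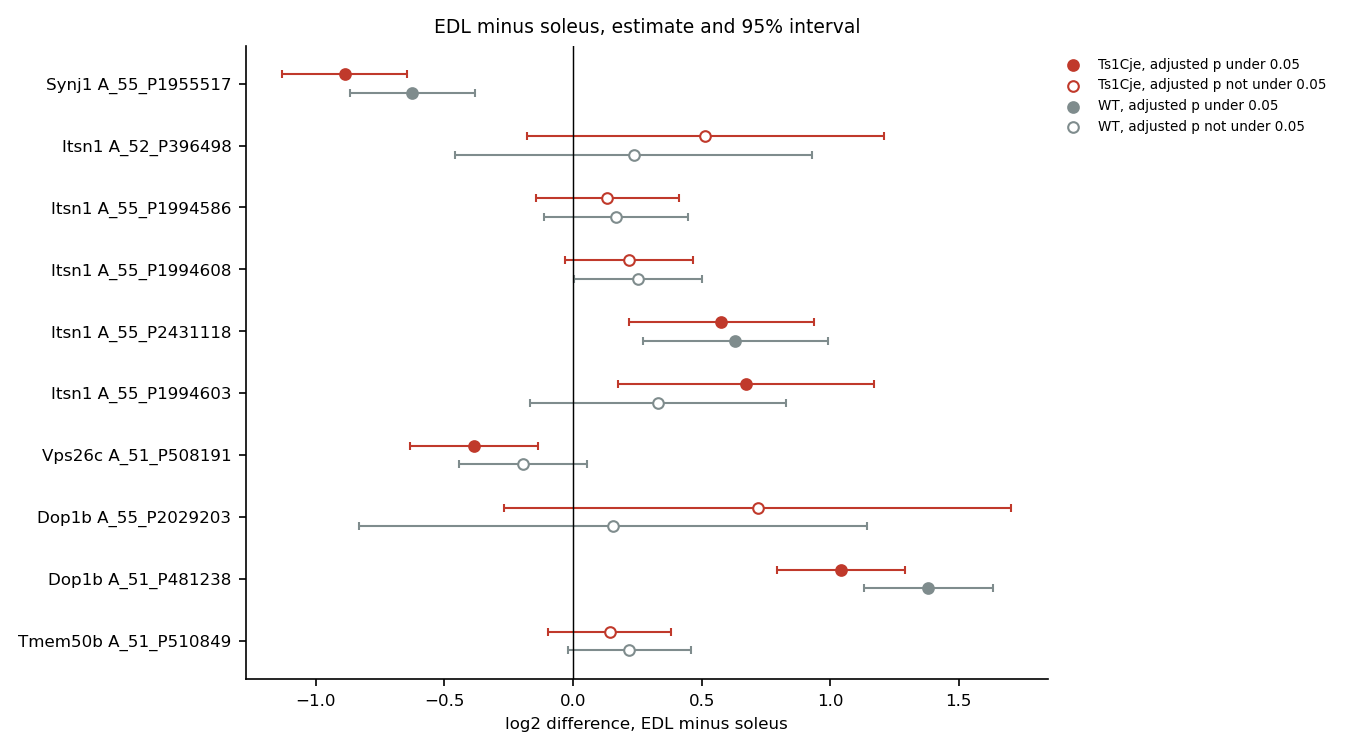
Estimated log2 difference, EDL minus soleus, with its 95% interval for each kept probe in Ts1Cje (red) and WT (grey); filled points have an adjusted p under 0.05. Dop1b A_51_P481238 lies at 1.04 and 1.38, and Synj1 at -0.89 and -0.63.

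The 5 genes lie among other genes of the same extra copy. Between the probes of Scaf4 and Zbtb21, 7.94 Mb apart in mm9, 59 other named genes had a kept probe. Their median change was 0.49 in the EDL (50 of 59 higher, 0 called) and 0.63 in the soleus (50 of 59 higher, 15 called), beside -0.01 and 0.08 for the 389 genes of chromosome 16 outside it, of which 0 and 1 were called. Among the 64 genes of the segment, each by its probe of highest mean, Tmem50b ranked 6 by its EDL change and 9 by its soleus change, Synj1 29 and 13, Dop1b 40 and 15, Vps26c 20 and 16, and Itsn1, through the GT-run probe, 54 and 63. By the 4 Itsn1 probes without the run the ranks would be 10 and 43 (A_52_P396498), 17 and 33 (A_55_P1994586), 39 and 43 (A_55_P1994608) and 35 and 38 (A_55_P2431118).

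**Figure D5:**
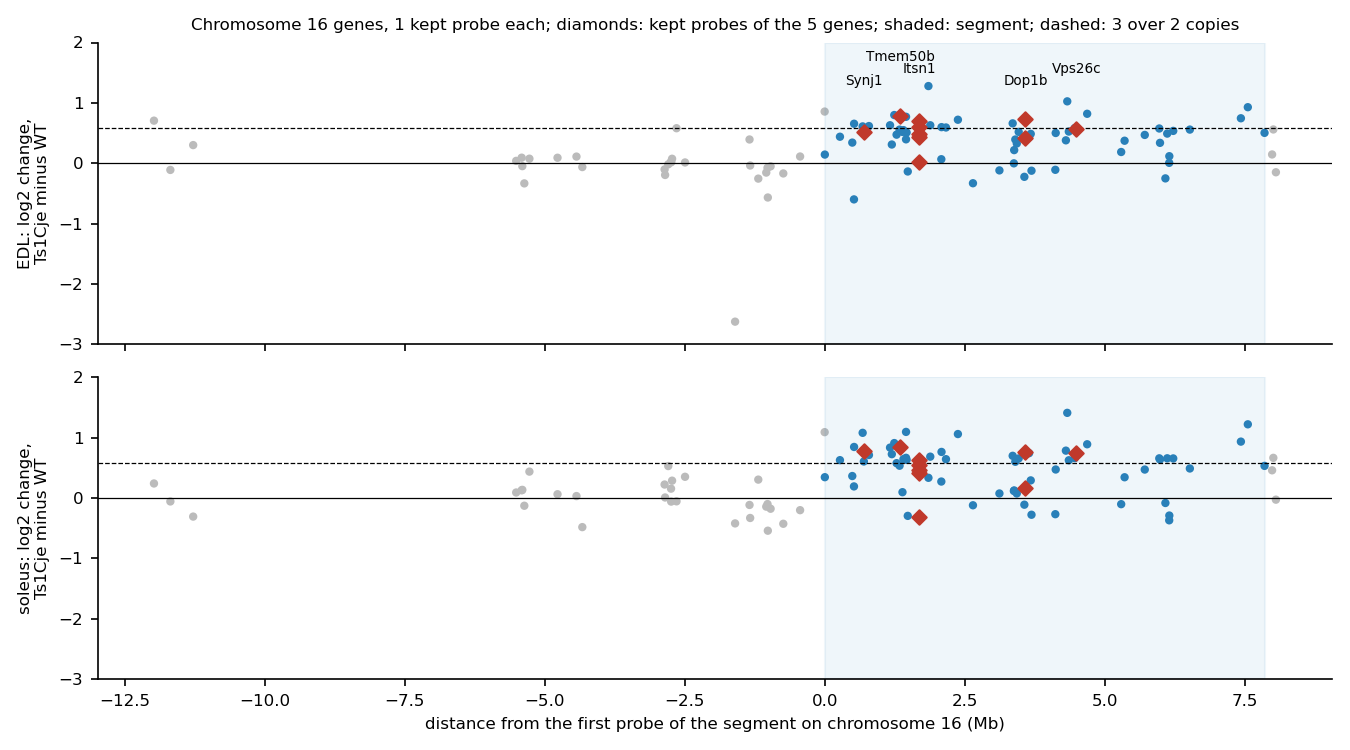
Log2 change, Ts1Cje minus WT, of chromosome 16 genes in the EDL (top) and soleus (bottom) against distance in Mb from the first probe of the segment, for genes up to 12 Mb before it and all genes after it. Diamonds are the 10 kept probes of the 5 genes, placed at the position of the gene's probe of highest mean, blue points the other 59 segment genes, grey points genes outside the segment, and the dashed line the log2 ratio of 3 to 2 copies (0.58). The grey point at the left edge of the segment with 0.86 in the EDL and 1.09 in the soleus is Sod1.

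Of the 10 nearest kept genes on either side of the members, 9 had a positive change in both muscles and 3 rose in the soleus. Of the 59 other segment genes 15 rose in the soleus, beside 0.115% of all kept probes called higher. Nothing particular to the neighbours is read from their count. Distances run from the probes of a member to the kept probe of its neighbour, not between the ends of the genes. Beside Synj1, Cfap298 (10.04 kb away) stood at 0.52 ± 0.12 in the EDL and rose by 0.61 ± 0.10 in the soleus, and Paxbp1 (78.3 kb) stood at 0.62 ± 0.19 and 0.71 ± 0.17. Beside Tmem50b, Ifngr2 (10.7 kb), a subunit of the interferon gamma receptor, stood at 0.56 ± 0.13 and 0.53 ± 0.11, and Dnajc28 (41.2 kb) at 0.52 ± 0.25 and 0.10 ± 0.22. Atp5o (11.7 kb from Itsn1), a subunit of mitochondrial ATP synthase, stood at 0.47 ± 0.12 in the EDL and rose by 0.65 ± 0.11 in the soleus, while the predicted gene Gm10785 (118 kb) stood at -0.14 ± 0.32 and -0.30 ± 0.28. On the sides of Dop1b lie Cbr3 (49.2 kb; 0.52 ± 0.23 and 0.66 ± 0.20) and Morc3 (65.2 kb), which stood at 0.43 ± 0.11 in the EDL and rose by 0.74 ± 0.10 in the soleus. On those of Vps26c lie Ttc3 (28.7 kb; 0.58 ± 0.16 and 0.66 ± 0.14) and Dyrk1a (194 kb), a protein kinase, at 0.82 ± 0.24 and 0.89 ± 0.21.

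Pearson r on log2 levels over the 14 arrays takes in the differences between the 4 groups and carries no p here. By this r, the genes most like each member came from inside and outside the segment. For Dop1b they were Sh3bgr (0.975), Hsbp1 (0.965) and Hgsnat (0.9496), of which Sh3bgr lies in the segment and differed between EDL and soleus in WT by 1.40, beside 1.38 for Dop1b. For Tmem50b they were Sod1 (0.963), whose probe lies 3.13 kb before that of Scaf4, Smim11 (0.953), a segment gene, and Dnah11 on chromosome 12 (0.948), whose own log2 changes were 8.84 in the EDL and 9.11 in the soleus. For Vps26c they were Ifnar2 (0.952) and Hmgn1 (0.934) of the segment and H2-Ke6 on chromosome 17 (0.937). For Synj1 the list held no segment gene: Gtpbp6 (0.958), Srgap1 (0.937) and Nkiras2 (0.933). For the GT-run probe of Itsn1 they were Creb5 (0.996), Ms4a4c (0.995) and LOC100048345 (0.995), each read by a probe with a GT run of 26 to 31 bases.

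Promoter windows from RefSeq (GRCm38.p6, a later build than that of the probes), 250 bases before to 50 after a gene's start, were found for all 5 genes, with 2 windows each for Synj1 and Dop1b. Tmem50b, which had the largest change of the called members, and Dop1b, which separated all 4 groups, are shown, with GGGCGG and CCAAT on either strand in capitals.
Tmem50b promoter, chr16:91597631-91597930 (-): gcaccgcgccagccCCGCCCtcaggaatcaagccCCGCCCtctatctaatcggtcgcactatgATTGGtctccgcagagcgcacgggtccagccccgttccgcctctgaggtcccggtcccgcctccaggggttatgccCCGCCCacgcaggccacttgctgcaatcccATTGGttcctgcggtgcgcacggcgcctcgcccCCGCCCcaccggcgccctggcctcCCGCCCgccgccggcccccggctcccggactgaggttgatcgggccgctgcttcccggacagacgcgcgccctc
Dop1b promoter, chr16:93711657-93711956 (+): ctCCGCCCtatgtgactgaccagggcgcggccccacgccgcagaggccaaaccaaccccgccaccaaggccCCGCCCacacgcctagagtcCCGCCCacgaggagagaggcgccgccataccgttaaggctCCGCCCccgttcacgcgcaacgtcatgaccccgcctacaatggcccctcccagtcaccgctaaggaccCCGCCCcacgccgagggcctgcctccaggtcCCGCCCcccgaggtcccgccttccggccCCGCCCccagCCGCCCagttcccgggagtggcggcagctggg
GGGCGG, counted on both strands with overlaps allowed, occurred 5 times in the Tmem50b window, 8 times in this Dop1b window, 5 times in that of Itsn1, 7 times in 1 of the Synj1 windows and 1 time in that of Vps26c, against 0 in the second windows of Dop1b and Synj1. Of all 32851 promoter windows of this length, 35.7% hold it. CCAAT occurred 2 times each in Tmem50b and Itsn1 and 0 times in the others, beside 37.4% of all windows, and TATAAA in none of the 7, beside 13.6%. The 7 windows held 12 to 40 CG pairs, beside a median of 7. These matches describe the letters only.

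Relatives of the members on other chromosomes gave no calls for genotype. Itsn2, the second intersectin, stood at -0.22 ± 0.12 in the EDL and 0.08 ± 0.10 in the soleus. Vps26a and Vps26b, the retromer counterparts of Vps26c, stood at -0.07 ± 0.12 and 0.00 ± 0.16 in the EDL and at 0.07 ± 0.10 and -0.09 ± 0.14 in the soleus. Synj2 (0.01 ± 0.39 and 0.06 ± 0.34) and Tmem50a (-0.04 ± 0.21 and -0.12 ± 0.19) were likewise not called, and Dop1a had no kept probe. Between the muscles Vps26b was higher in the EDL by 0.62 ± 0.15 in Ts1Cje and 0.53 ± 0.15 in WT (limma adjusted p = 0.00937 and 0.0209).

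Partners of the members in clathrin-mediated endocytosis, 50 of 57 listed genes measured, gave 0 calls for genotype in either muscle. Their median change was 0.02 in the EDL (28 of 50 higher) and 0.13 in the soleus (38 of 50 higher). All 14168 genes, each read at its probe of highest mean like the list genes, had medians of 0.00 and 0.07. Over all kept probes the medians were -0.00 and 0.03, with 12457 and 13615 of 25190 higher. In the soleus the smallest p values belonged to Cltc, the clathrin heavy chain (0.32 ± 0.11), Cdc42, the GTPase that long intersectin activates (0.29 ± 0.10), Ap2a1, an AP-2 adaptor subunit (0.47 ± 0.17), and the endocytic adaptor Numb (-0.48 ± 0.19), at limma adjusted p from 0.302 to 0.332. In the EDL they belonged to Fcho2 (-0.42 ± 0.18), Eps15 (0.42 ± 0.22), Itsn2 and Reps1 (-0.33 ± 0.18), at an adjusted p of 0.99997. In Ts1Cje mice 9 of the 50 were called higher and 4 lower in the EDL than in the soleus, beside 16.2% and 10.8% of all kept probes, and in WT mice 9 higher and 2 lower, beside 16.5% and 9.6%. With 1 probe per gene, 2484 of 14168 genes were called higher and 1760 lower in Ts1Cje, and 2840 higher and 1383 lower in WT. The list's counts are close to or below these shares, and nothing particular to the list is read from them. Among the WT calls were Cltb, a clathrin light chain (0.88 ± 0.11), Ston2, a cargo adaptor (1.51 ± 0.20), Ocrl, a phosphoinositide phosphatase (1.26 ± 0.19), and Ap2b1 of AP-2 (0.59 ± 0.11).

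Retromer, retriever and COMMD complex genes, 29 of 30 measured, also gave 0 calls for genotype. Their median change was 0.01 in the EDL (17 of 29 higher) and 0.09 in the soleus (25 of 29 higher). Over all 14168 genes the medians were 0.00 and 0.07, and 13615 of the 25190 kept probes were higher in the soleus. Whether the count is particular to the list was not tested. Smallest in p among the soleus changes were Washc3 (0.23 ± 0.11), Snx2 (0.19 ± 0.11), Commd1 (0.17 ± 0.10) and Dennd10 (0.23 ± 0.15). Among the EDL changes they were Snx6 (-0.21 ± 0.15), Vps35, the core of retromer (0.17 ± 0.13), Snx17, the cargo adaptor of retriever (-0.12 ± 0.11), and Washc5 (-0.11 ± 0.11). Between the muscles, 3 of the 29 were called higher and 3 lower in the EDL in Ts1Cje, and 3 higher and 1 lower in WT, beside the same shares of all kept probes. In WT, Ccdc22 (0.45 ± 0.10), Commd8 (0.48 ± 0.13) and Vps26b were called higher in the EDL and Commd6 lower (-0.35 ± 0.12).

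Of the Dop1, Mon2 and flippase partners, 5 of 6 were measured and 0 were called in any of the genotype or muscle comparisons. Atp9a, a flippase of endosomes, stood at 0.21 ± 0.16 in the EDL and 0.13 ± 0.14 in the soleus, and Wls, the Wnt carrier that retromer recycles, at 0.12 ± 0.19 and 0.16 ± 0.16. Among Rab and tether genes of endosomes, 36 of 37 measured, 0 were called for genotype. Their medians were 0.02 in the EDL (22 of 36 higher) and 0.06 in the soleus (24 of 36 higher). Over all 14168 genes the medians were 0.00 and 0.07. Ehd2, a membrane-remodelling ATPase at caveolae, stood at 0.29 ± 0.14 in the EDL and 0.42 ± 0.12 in the soleus (limma adjusted p = 0.253), Stam2 at -0.35 ± 0.14 in the soleus, and Eea1, the early endosome tether, at 0.17 ± 0.13 and 0.25 ± 0.12. In Ts1Cje mice 9 of the 36 were called higher and 4 lower in the EDL, beside 16.2% and 10.8% of all kept probes, and in WT mice 9 higher and 3 lower, beside 16.5% and 9.6%, and nothing particular to the list is read from these counts. In WT the calls included Rab11fip2 at 1.41 ± 0.15, Rabgef1 at 1.11 ± 0.14, Rab5b at 0.55 ± 0.11 and Rab11fip5 at -1.42 ± 0.19. For these list genes the part of the slide in the muscle differences was not tested.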

How the data were processed

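The deposited scanner files hold, per the file headers, intensity values from Agilent Feature Extraction (version 11.5.1.1 in the headers, 9.1 per the submitters' processing notes) with the background subtracted by the software, not normalized between arrays. The authors' deposited log2 table, 75th-percentile shifted and centred per probe, gave probe names, sequences and mm9 positions and served as an alternative (lowest r with the scanner values 0.999998). Cy3-labelled cRNA came from 25 ng of RNA per sample, per the labels.

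Of 62976 spots, 3671 were controls. Spots of a probe were averaged without outlier spots, and log2 processed signal was taken minus the array's log2 75th percentile (62.4 to 144 intensity units). Symbols were updated through RefSeq for 2152 of 33822 named probes. limma 3.58.1 in R 4.3.3 fitted 1 mean per group to all 14 arrays (10 residual and 2.86 prior degrees of freedom), two-sided, with Benjamini-Hochberg adjustment over 25190 kept probes. Exact permutation tests used scipy 1.17.1. The number of arrays limits the precision.

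List genes were read at the kept probe of highest mean; the 4 of smallest p, or called, per list and comparison are named, and the 3 most correlated genes and nearest neighbours per member. The 5 genes and all lists were chosen with earlier results of these data known. No label says that equal replicate numbers mark a pair, so they were not taken as pairs.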

Additional observations from a re-analysis of the deposited data

How the results depend on the processing

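The counts of calls depended on the setting. In the EDL, 3 probes were called for genotype, and 5 with quantile normalization, array weights or a trended and robust variance. The EDL count was 1 with only probes well above background on all arrays, 1 probe per gene, the mean of a gene's probes or the EDL alone, and 1 to 4 with 1 array left out. In the soleus 41 were called, against 27 with normexp, 23 with gene means, 8 without the filter, 4 in the soleus alone, 1 with slide as a block or on slide 2 only, and 12 to 43 with 1 array left out. The counts between muscles were 6579 in WT (3800 normexp, 4006 no filter, 4223 1 probe per gene, 4131 gene means, 1943 slide as a fixed block) and 6805 in Ts1Cje (4187 no filter, 4244 1 probe per gene, 4231 gene means, 3199 slide as a fixed block). Fewer features were tested per gene and fewer samples in some of these, and otherwise the cause was not tested. The share of soleus calls that were higher was 70.7%, 57.9% with the percentile over probes detected on all arrays, 50% without the filter, 25% (1 of 4) in the soleus alone, 10% (1 of 10) with the replicate block and 41.7% to 74.3% with 1 array left out. Most calls were lower in the soleus alone, with the replicate block and without soleus Ts1Cje replicate 4 (15 of 36 higher).

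Same-numbered samples of the 2 genotypes had deviations correlated between 0.06 and 0.32 in the EDL and between -0.30 and -0.01 in the soleus. Samples of different number had r between -0.28 and -0.0021 in the EDL and between -0.17 and 0.39 in the soleus. Every same-number r thus lay above every other r in the EDL, but not in the soleus. Whether the numbers pair the samples is not settled by these values. With the replicate number as a replicate block, 1 probe was called in the EDL and 10 in the soleus, and the adjusted p was 0.0651 for Tmem50b, 0.133 for Synj1 and 0.145 for Vps26c and Dop1b. Without the filter on dim probes these were 0.0964, 0.156, 0.178 and 0.178. Dop1b also lost its soleus call as a gene mean of both probes (0.46, adjusted p = 0.397). Tmem50b in the EDL passed with array weights (0.0469) and with a trended and robust variance (0.0226).

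Direction turned only for values that were not called. With normexp, Tmem50b between muscles in Ts1Cje was -0.064, the difference of effects of Itsn1 A_55_P1994586 0.011, the EDL change of the GT-run probe -0.024 and the soleus change of Dop1b A_55_P2029203 -0.0028. With the percentile over detected probes, the differences of effects of Itsn1 A_55_P1994586, A_55_P1994608 and A_55_P2431118 were 0.024, 0.026 and 0.0036, and the WT muscle differences of A_55_P1994586 and Dop1b A_55_P2029203 were -0.0054 and -0.018. With quantile normalization the differences of effects of A_55_P1994608 and A_55_P2431118 were 0.0052 and 0.011, and with array weights that of A_55_P1994586 was 0.0099. With slide as a fixed block the WT muscle differences of the GT-run probe and Dop1b A_55_P2029203 were -0.22 and -0.15. With gene means, Itsn1 in the soleus was 0.35 and the Dop1b difference of effects 0.11. With 1 array left out, the differences of effects ranged from -0.14 to 0.00089 for Tmem50b, -0.0054 to 0.58 for Itsn1 A_52_P396498, -0.13 to 0.061 for A_55_P1994586, -0.16 to 0.071 for A_55_P1994608, -0.27 to 0.11 for A_55_P2431118 and -0.0092 to 0.92 for Dop1b A_55_P2029203. The WT muscle difference ranged from -0.064 to 0.45 for A_52_P396498 and -0.20 to 0.73 for Dop1b A_55_P2029203, the EDL change of the GT-run probe from -0.10 to 0.24, and the soleus change of Dop1b A_55_P2029203 from -0.16 to 0.45. Dim probes near background limit what can be read from A_52_P396498 and A_55_P2029203.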

Other observations

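Within groups, after each group's mean was taken off, Itsn1 A_55_P1994608 and A_55_P2431118 had a Pearson r of 0.79 over the 14 arrays, and the GT-run probe of Itsn1 had an r of -0.67 with Synj1. These values describe shared arrays and carry no p.

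The 3 probes that were not kept had levels of 0.0263 to 0.449 (Synj1 A_55_P1955511), 0.0264 to 0.122 (Itsn1 A_55_P1958062, above background on 0 arrays) and 0.0656 to 0.339 (Itsn1 A_55_P1994613, above background on 4 arrays). Among 20 groups of 4 soleus arrays, Dixon's test found 0 arrays far from the others, where chance gives about 1 in 20.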
